A study of Rattus norvegicus with 6 samples.

Results

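Catenins, classical cadherins and simple keratins were followed across 6 microarrays of 3Y1, an embryonic fibroblast line of the rat. The 10 genes were plakoglobin (Jup), beta-catenin (Ctnnb1), alpha-catenin (Ctnna1), p120-catenin (Ctnnd1), E-cadherin (Cdh1), N-cadherin (Cdh2), cadherin 11 (Cdh11) and keratins 8, 18 and 19 (Krt8, Krt18, Krt19), of 14217 genes that the array names by at least 1 probe set for a single gene. They were chosen by name, and every probe set that the platform annotation gives to 1 of them alone was taken, which made 18 probe sets. Of these, 12 passed the filter on mean signal, covering 8 genes, and 6 did not. Krt18 and Krt19 were measured only by probe sets below the filter.

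All cells carried a stably transfected plasmid, either an empty vector (Vector) or one for the intracellular tail of the mucin MUC1, its cytoplasmic domain (MUC1-CD). Vector and MUC1-CD cells were profiled from culture, and MUC1-CD cells also from subcutaneous tumors in the hindlimbs of female athymic mice, with 2 arrays in each of these 3 groups. The labels call the arrays of a group biological replicates and do not say whether these came from separate cultures, clones or animals, so p-values measure only the spread between these arrays. Tumors of Vector cells were not analysed here, and growth as a tumor, host tissue and the separate RNA preparation of frozen tumors cannot be told apart. In RNA of whole tumors, fewer cells of a type and less RNA per cell cannot be told apart either.

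Classical cadherins are membrane proteins that join neighbouring cells, and their tails carry the catenins. Beta-catenin and plakoglobin bind the same part of the tail and link it, through alpha-catenin, to actin, while p120-catenin binds nearer the membrane and keeps cadherins at the surface. Plakoglobin also sits in desmosomes, the junctions that anchor keratin filaments, and beta-catenin that is not at the membrane acts with TCF/LEF factors in transcription. Keratins 8, 18 and 19 are the filament proteins of simple epithelia, whereas fibroblasts mainly build filaments of vimentin and join through N-cadherin and cadherin 11. The MUC1 tail is known to bind beta-catenin and plakoglobin. The stated question was which genes accompany transformation by the MUC1 tail and tumorigenesis.

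The upstream sequences of Jup and Krt8 are shown because these genes fell by the most among the 8 genes tested in MUC1-CD culture, and that of Krt18 because it lies next to Krt8 and encodes its filament partner. Each is the 250 bases before the gene's start in the RefSeq promoter table, build GRCr8, written 5′ to 3′ on the gene's strand. The capitals mark matches to E-boxes (CANNTG, a class that includes CAGGTG, bound by SNAI and ZEB repressors), GC boxes (GGGCGG) and TATA boxes (TATAAA), searched on both strands. The Jup window is chr10:85827430-85827679 (minus strand), the Krt8 window chr7:135010340-135010589 (minus strand) and the Krt18 window chr7:135035918-135036167 (plus strand).
Jup: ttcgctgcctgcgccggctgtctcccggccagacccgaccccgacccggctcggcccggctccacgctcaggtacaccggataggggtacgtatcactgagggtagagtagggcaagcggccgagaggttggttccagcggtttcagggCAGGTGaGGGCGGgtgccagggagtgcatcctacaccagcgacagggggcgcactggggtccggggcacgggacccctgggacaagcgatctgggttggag
Krt8: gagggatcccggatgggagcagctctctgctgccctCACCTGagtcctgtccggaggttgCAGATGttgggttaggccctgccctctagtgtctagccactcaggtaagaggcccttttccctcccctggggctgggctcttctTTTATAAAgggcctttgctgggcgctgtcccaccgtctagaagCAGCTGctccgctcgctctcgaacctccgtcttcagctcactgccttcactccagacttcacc
Krt18: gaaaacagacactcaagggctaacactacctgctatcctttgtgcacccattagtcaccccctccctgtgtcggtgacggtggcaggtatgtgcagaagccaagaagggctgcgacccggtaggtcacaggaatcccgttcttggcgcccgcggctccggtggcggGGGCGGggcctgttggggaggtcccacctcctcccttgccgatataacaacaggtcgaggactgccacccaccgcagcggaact

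The Jup window held CAGGTG at -101 to -96 from the start and a GC box at -94 to -89. The Krt8 window held the same E-box on the other strand (CACCTG) at -214 to -209, further E-boxes at -190 to -185 and -63 to -58, and overlapping TATA matches between -106 and -99. In the Krt18 window a GC box at -84 to -79 was matched, with no E-box. Of 33469 promoter windows of this length, 15.9% held CAGGTG or its complement, 65.5% any E-box, 30.5% a GC box and 12.9% a TATA box. Neither the TCF/LEF motif CTTTGAT (3.15% of all windows) nor the AP-1 motif TGANTCA (6.34%) matched in the windows of Jup, Ctnnb1, Ctnnd1, Krt8 or Krt18, the 5 members in the table. A match is a string of letters, not a measured binding site. The GC content was 68.8% in the Jup window and 62.0% in that of Krt18, against a median of 51.2%.

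Values are deposited MAS5 signals, which are array intensities on a linear scale, given in the order replicate 1 and 2 of a group. Changes are differences of log2(signal + 16), which damps the change of dim probe sets, with the standard error (SE) from limma. Adjusted p-values are limma's after Benjamini-Hochberg adjustment over 18625 probe sets, with a threshold of 0.05. The arrays had the same trimmed mean, but their median signal ran from 84 to 130.4. The ratio of 3′ to 5′ signal of Gapdh, a measure of RNA integrity, was 11.5 and 17.8 on the Vector arrays and 1.11 to 1.18 on the other 4. The Vector replicates also differed more from each other, with an SD of the log2 difference of 0.616, where the MUC1-CD pairs had 0.257 (culture) and 0.284 (tumors). Every comparison with Vector below carries this difference in RNA integrity, and its part in the results was not tested.

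In MUC1-CD culture against Vector culture, plakoglobin and keratin 8 were both over 10-fold lower, beta-catenin and alpha-catenin were modestly lower by their brightest probe sets, and the fibroblast cadherins were at similar or somewhat higher signal. Of the 12 member probe sets tested, 4 fell and 1 rose, a share of 41.7% called against 45.8% of all probe sets, a share near the background. Among probe sets over the array 25.0% rose and 20.7% fell, and the members' median change was -0.11 against 0.07 for all. In tumors against MUC1-CD culture, 2 rose and 3 fell, also 41.7%, against a background of 15.8% (8.54% higher and 7.31% lower). This background rests on the spread of the Vector arrays, which enter the shared error. Fitted on the 2 groups alone, with the signal filter set anew, 7 member probe sets and 43.7% of all probe sets were called. Krt8 and Cdh11 1391146_at were not tested in that fit, so these 7 are not a share of the 12. With all arrays fitted, E-cadherin by 1 probe set and plakoglobin were those that rose, and N-cadherin and cadherin 11 those that fell. In tumors against Vector culture, 2 rose and 4 fell, 50% of the 12 against 51.5% of all (29.1% higher and 22.4% lower). Counted by gene, with the brightest probe set of each of 8 genes, 4 fell in MUC1-CD culture against Vector (background 46.1% called, 24.9% lower). In tumors against MUC1-CD culture 2 genes rose and 2 fell (background 18.8% called, 9.82% higher and 8.97% lower), and in tumors against Vector 1 rose and 4 fell (background 51.4% called, 24.8% higher and 26.6% lower). The 3 comparisons share groups, so their counts are not independent. With each array divided by its median signal, the higher share of all calls went from 54.7% to 33.7% in MUC1-CD culture against Vector, from 53.9% to 22.9% in tumors against MUC1-CD culture and from 56.5% to 25.7% in tumors against Vector.

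These counts moved with single arrays. For MUC1-CD culture against Vector the count called was 2 without either MUC1-CD culture array, 3 without either tumor array, 6 without Vector replicate 2 and 7 without Vector replicate 1. For tumors against MUC1-CD culture it was 3 without any 1 of the 4 arrays compared. For tumors against Vector it was 3 without tumor replicate 2 and 9 without Vector replicate 1. The changes of Jup and Krt8 in culture, and those of Jup, Cdh1 and the brighter Cdh2 probe set in tumors against MUC1-CD culture, were called under every alternative that could be fitted. Krt8 passed the signal filter only through Vector culture and the Cdh1 probe set only through tumors, the groups where they are high, so their calls among the tested members were in part set by the filter.

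**Figure D1:**
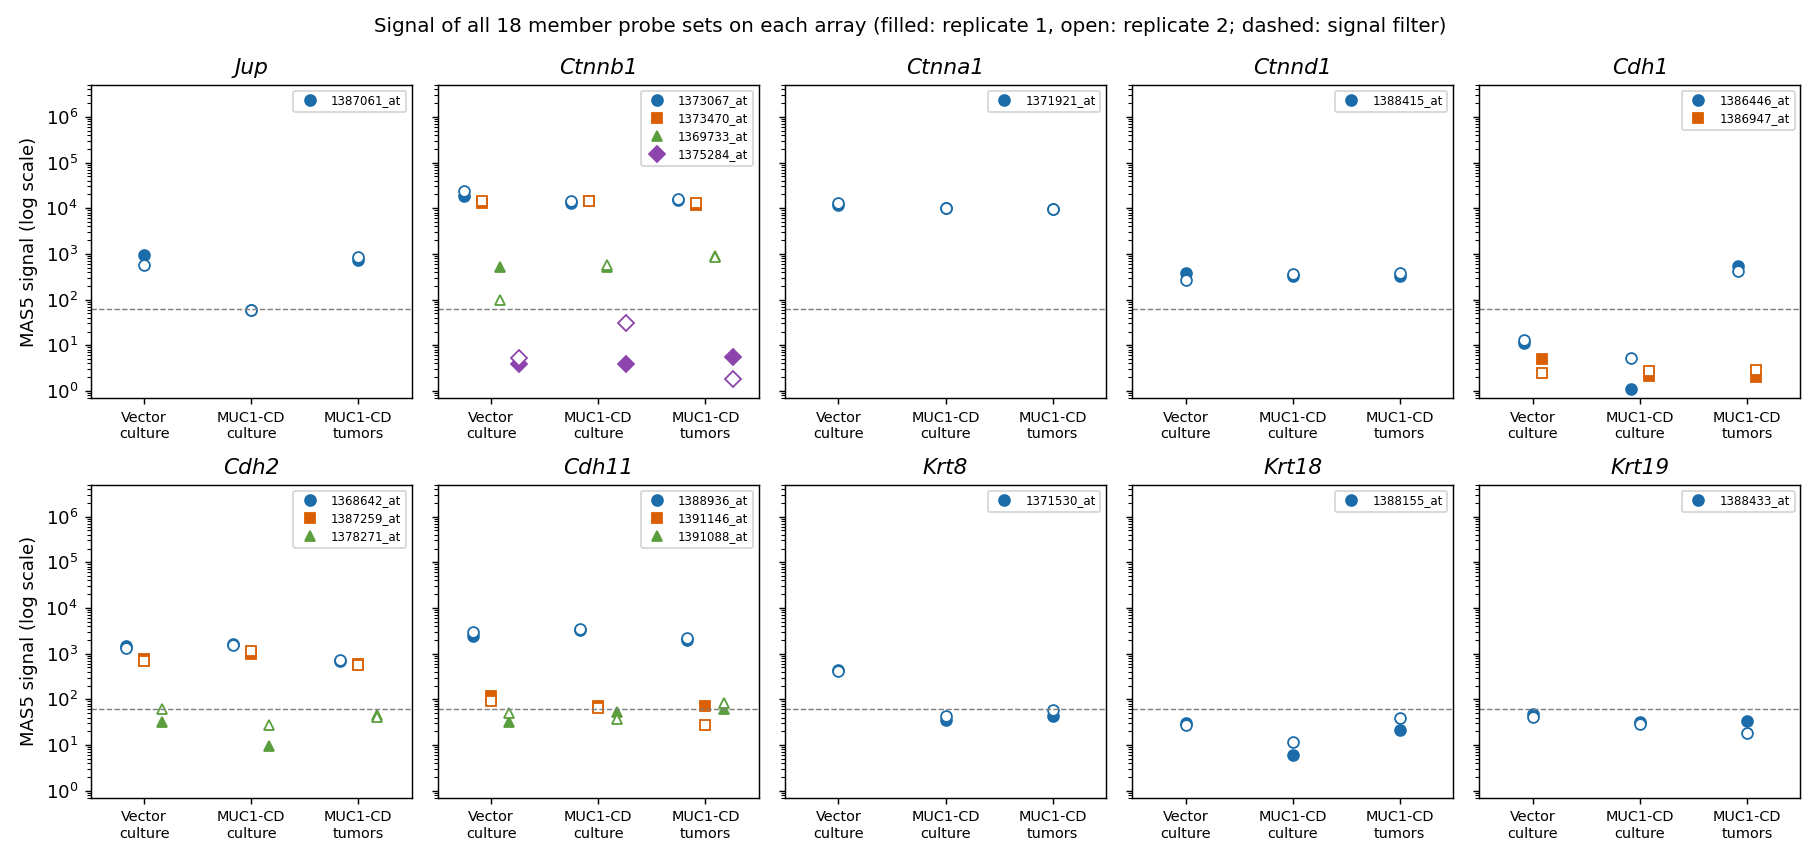
MAS5 signal (log axis) of each member probe set on each of the 6 arrays, with 1 panel per gene. Filled points are replicate 1 and open points replicate 2, colours and symbols separate probe sets of a gene, and the dashed line is the signal filter (61.6). Jup is low only in MUC1-CD culture (57.8 and 59.5), Krt8 is high only in Vector culture (449.8 and 424.3), and the Cdh1 probe sets part in tumors, 1 at 537.2 and 424.7 and the other at 2.0 and 2.9.

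Plakoglobin, the catenin shared by adherens junctions and desmosomes, had signals of 931.6 and 569.0 in Vector culture, 57.8 and 59.5 in MUC1-CD culture, and 735.3 and 876.3 in tumors. The MUC1-CD culture arrays lay far below the other 4, whereas the ranges of Vector and tumors overlapped. The group means were 750.3 ± 256, 58.65 ± 1.20 and 805.8 ± 99.7 (SD, n = 2). Jup was 12.8-fold lower in MUC1-CD culture than in Vector by the means, a log2 change of -3.32 (SE 0.249, limma adjusted p = 0.000164). It was 13.7-fold higher in tumors than in MUC1-CD culture, with a log2 change of 3.46 (SE 0.249, limma adjusted p = 0.000427). Across the alternatives these changes ranged from -3.67 to -2.69 and from 2.82 to 3.75.

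Tumors and Vector cultures were not told apart for plakoglobin: the log2 difference was 0.14 with a 95% interval of -0.46 to 0.73 (limma adjusted p = 0.669). The direction of that difference rested on 1 Vector array. Without Vector replicate 1 it was 0.49 (adjusted p = 0.0312 by limma), and without Vector replicate 2 it was -0.21. With each array divided by its median signal it was -0.45.

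Beta-catenin, the catenin with a second role in transcription, was measured by 4 probe sets that did not behave alike. The brightest, 1373067_at, gave 18074.5 and 23904.8 in Vector, 13216.2 and 14431.2 in MUC1-CD culture, and 14827.7 and 16044.0 in tumors. Both Vector arrays were above the other 4, and the change in MUC1-CD culture was -0.59 (SE 0.134, limma adjusted p = 0.012). That call was lost with quantile normalization (-0.26, adjusted p = 0.154 by limma) and without either MUC1-CD culture array (limma adjusted p = 0.0861 and 0.0521). In tumors against MUC1-CD culture the difference was 0.16, with an interval of -0.16 to 0.48 and a limma adjusted p of 0.469. In tumors against Vector it was -0.43 (adjusted p = 0.0341 by limma), a call kept in 8 of 16 alternatives.

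The next probe set of Ctnnb1, 1373470_at, was nearly level, at 12755.3 and 14321.0 in Vector, 14057.7 and 14091.7 in MUC1-CD culture, and 11997.5 and 13179.1 in tumors. Its change in MUC1-CD culture was 0.06, with an interval of -0.15 to 0.27 (limma adjusted p = 0.617). The dimmer 1369733_at gave 515.7 and 97.5 in Vector, 524.4 and 585.3 in MUC1-CD culture, and 898.7 and 843.6 in tumors. Its Vector replicates differed by 2.23 on the log2 scale, the widest gap between replicates of any tested member probe set. In tumors it was higher than in Vector by 1.85 (SE 0.626, limma adjusted p = 0.0443), but by 0.74 without Vector replicate 2 and by 2.97 without Vector replicate 1. The call was kept in 6 of 16 alternatives. The last probe set, 1375284_at, was below the filter at 1.8 to 30.4. The probe sets of Ctnnb1 thus gave no common direction.

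Alpha-catenin, which couples the cadherin complex to actin, had signals of 11581.7 and 13094.9 in Vector, 10085.8 and 10345.5 in MUC1-CD culture, and 9737.2 and 9575.8 in tumors. The groups did not overlap, although the steps between them were small. The change in MUC1-CD culture was -0.27 (SE 0.085, limma adjusted p = 0.0386) and was called in 7 of 16 alternatives. In tumors against Vector it was -0.35 (limma adjusted p = 0.0133), called in 12 of 16. Between tumors and MUC1-CD culture the difference was -0.08 (limma adjusted p = 0.565).

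For p120-catenin, the stabiliser of surface cadherins, the signals were 390.0 and 273.0 in Vector, 331.4 and 354.5 in MUC1-CD culture, and 324.2 and 381.7 in tumors. All groups overlapped. The difference in MUC1-CD culture was 0.07 with an interval of -0.43 to 0.57, and in tumors against MUC1-CD culture 0.04 with an interval of -0.46 to 0.53 (limma adjusted p = 0.818 and 0.931).

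**Figure D2:**
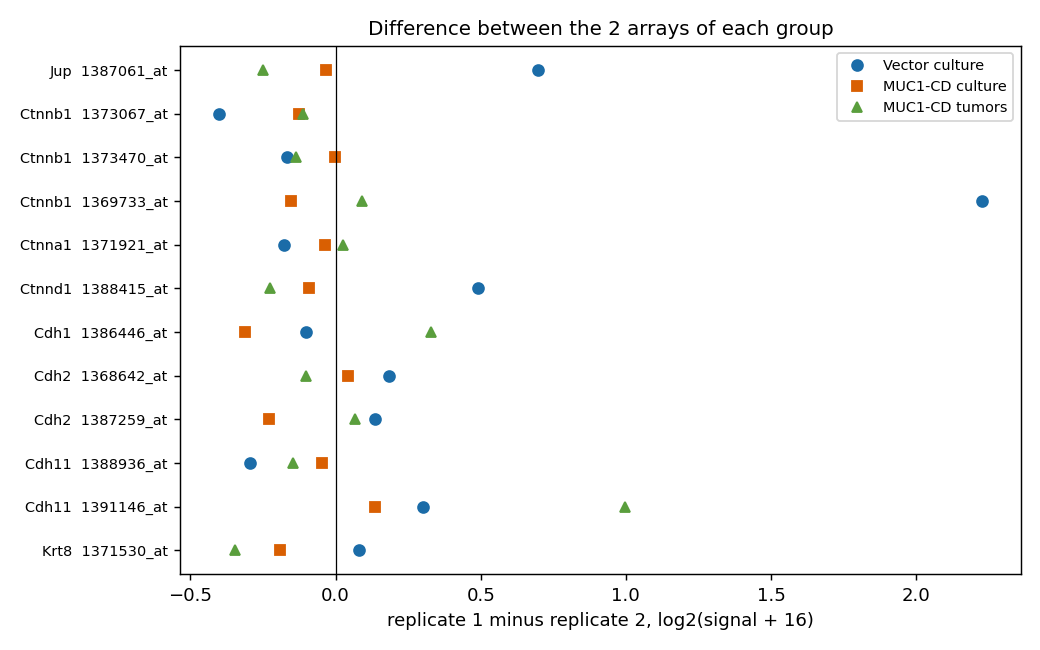
Difference of log2(signal + 16) between replicate 1 and replicate 2 within each group (x axis), for each of the 12 tested member probe sets (y axis). The Vector pair is widest for Ctnnb1 1369733_at (2.23) and Jup (0.70), while the MUC1-CD culture pair lies between -0.31 and 0.13 throughout.

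E-cadherin, the main cadherin of epithelia, was represented by probe sets that disagreed. The signals of 1386446_at were 11.3 and 13.3 in Vector, 1.1 and 5.2 in MUC1-CD culture, and 537.2 and 424.7 in tumors. Both tumor arrays were far above all cultures, and the change from MUC1-CD culture was 4.70 (SE 0.293, limma adjusted p = 0.000281). Against Vector it was 4.13 (SE 0.293, limma adjusted p = 9.74e-05). This probe set passed the signal filter only through the tumors, where its signal is high, so that it could be tested at all rests on the group where it rose.

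The other Cdh1 probe set, 1386947_at, stayed at 5.1 and 2.5 in Vector, 2.1 and 2.7 in MUC1-CD culture, and 2.0 and 2.9 in tumors, among the lowest 1.13% of mean signals. With no filter, its difference between tumors and MUC1-CD culture was 0.0037, with an interval of -0.47 to 0.48 (limma adjusted p = 0.994). The annotation ties 1386446_at to the gene by symbol, without naming a transcript. Which of them reports E-cadherin was not tested.

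No gene of the epithelial marker list could be tested beside 1386446_at. The list held 9 genes on the array, among them Epcam, Cldn3, Cldn4, Cldn7, Ocln and Esrp1, and none passed the signal filter. Its summed signal was 220.3 and 295.6 in Vector, 190.1 and 170.5 in MUC1-CD culture, and 299 and 204.3 in tumors, so that both tumor arrays were above both MUC1-CD culture arrays and overlapped with Vector. Epcam, a surface protein of most epithelia, read 14.3 and 6.7 in tumors.

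Summed signals of host cell marker lists were also higher in tumors, though not every marker rose. The summed signal of the 10 macrophage markers on the array went from 163.1 to 297.1 in the 4 cultures to 4222 and 4191 in tumors. Aif1, a macrophage protein, read 0.8 and 0.4 in MUC1-CD culture and 639.3 and 604 in tumors. The summed signal of 9 endothelial markers was 489.1 to 561.3 in cultures and 1134 and 1333 in tumors. Pecam1 (17.8 and 27.5) and Kdr (6.9 and 11.3) were low there. Vwf and Egfl7 were lower in tumors than on any culture array. Vwf read 9.7 and 10.2 against 21.1 to 53 in cultures, and Egfl7 148.3 and 205.3 against 226.2 to 322. The 9 skeletal muscle markers summed to 10060 and 10630 in Vector, 2940 and 2872 in MUC1-CD culture, and 12270 and 11230 in tumors. Most of the sum in cultures was Myh1, a muscle myosin (9778.9 and 10296.6 in Vector), while Acta1, the muscle actin, went from 3.7 and 5.1 in MUC1-CD culture to 5854.5 and 4971.2 in tumors. Most tested markers of these lists passed the signal filter only through the tumors, so no count of them is given. The array is designed for rat sequence, and how far it reads mouse RNA was not tested. The part of host cells in the changes of Cdh1, Jup or the other members in tumors was not tested.

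N-cadherin, the cadherin of fibroblasts, nerve and muscle, had signals on its brightest probe set, 1368642_at, of 1478.9 and 1300.5 in Vector, 1603.3 and 1556.2 in MUC1-CD culture, and 682.2 and 734.0 in tumors. The tumor arrays were lowest, with no overlap. Cdh2 fell by 1.14 in tumors against MUC1-CD culture (SE 0.129, limma adjusted p = 0.00243) and by 0.96 against Vector (limma adjusted p = 0.0012). In culture the difference between MUC1-CD and Vector was 0.19 (limma adjusted p = 0.28).

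The second tested Cdh2 probe set, 1387259_at, gave 767.3 and 697.3 in Vector, 994.0 and 1166.5 in MUC1-CD culture, and 590.9 and 564.0 in tumors. It shared the fall in tumors, by 0.88 against MUC1-CD culture (limma adjusted p = 0.0101), a call that was lost when any of the 4 arrays compared was left out. It rose in MUC1-CD culture by 0.55 (limma adjusted p = 0.021), which shrank to 0.23 with each array divided by its median (limma adjusted p = 0.229). The third, 1378271_at, was below the filter at 9.7 to 60.4.

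Cadherin 11, a cadherin of mesenchymal cells, had signals of 2460.7 and 3024.3 in Vector, 3308.4 and 3415.1 in MUC1-CD culture, and 2028.0 and 2247.4 in tumors on its brightest probe set, 1388936_at. The order ran from tumors through Vector to MUC1-CD culture, with no overlap. It fell by 0.65 in tumors against MUC1-CD culture (SE 0.132, limma adjusted p = 0.0206), called in 11 of 16 alternatives and in none that left out an array of either group compared. The difference in MUC1-CD culture against Vector was 0.30 (limma adjusted p = 0.107), and in tumors against Vector -0.35 (limma adjusted p = 0.0624). The other Cdh11 probe sets were dim, at 27.9 to 118.7 for 1391146_at, which was not called in any comparison, and 31.2 to 84.0 for 1391088_at, which was below the filter.

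**Figure D3:**
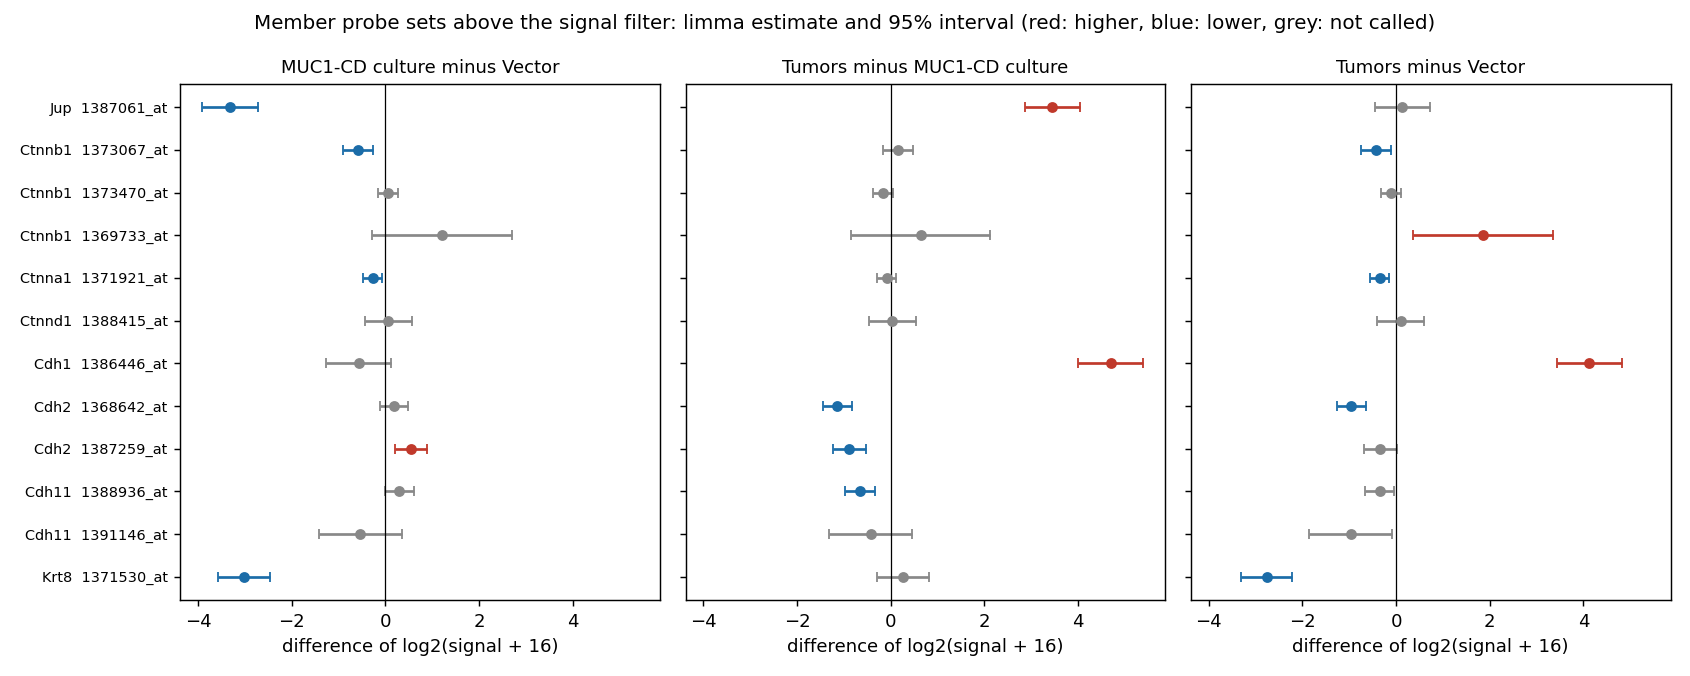
Difference of log2(signal + 16) with its 95% interval from limma (x axis) for each tested member probe set (y axis), in the 3 comparisons. Red points rose, blue points fell and grey points were not called at an adjusted p under 0.05. Jup moves down in culture (-3.32) and up in tumors (3.46), Krt8 moves down in culture and has an interval that spans 0 between tumors and MUC1-CD culture, and Cdh2 and Cdh11 move down in tumors.

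Keratin 8, a filament protein of simple epithelia that pairs with keratin 18, had signals of 449.8 and 424.3 in Vector, 36.2 and 43.6 in MUC1-CD culture, and 43.1 and 59.1 in tumors. The Vector arrays stood apart, and the MUC1-CD arrays from culture and tumors overlapped. The means were 437 ± 18, 39.9 ± 5.23 and 51.1 ± 11.3 (SD, n = 2). Krt8 fell in MUC1-CD culture by 3.02 (SE 0.232, limma adjusted p = 0.000178) and in tumors against Vector by 2.77 (limma adjusted p = 0.000177). The ratios of means were 11 and 8.55. Krt8 was tested only because of its signal in Vector, since both MUC1-CD groups lay below the filter (61.6). With no filter the limma adjusted p-values were 0.000492 and 0.000514. Between tumors and MUC1-CD culture the difference was 0.26 with an interval of -0.30 to 0.81 (limma adjusted p = 0.5), so a rise in tumors like that of Jup lies outside the interval.

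Keratin 18, the partner of keratin 8, was dim on every array, at 30.1 and 27.2 in Vector, 6.0 and 11.5 in MUC1-CD culture, and 21.2 and 39.6 in tumors. Its MUC1-CD culture arrays were lowest, and Vector and tumors overlapped. Fitted with no filter, Krt18 differed in MUC1-CD culture from Vector by -0.86, with an interval of -1.61 to -0.11 (limma adjusted p = 0.0942). In tumors it differed from MUC1-CD culture by 0.89, with an interval of 0.14 to 1.64 (limma adjusted p = 0.145). Keratin 19, the smallest of the simple keratins, gave 48.0 and 41.7, 32.3 and 29.5, and 34.1 and 18.3 in the same order. Without the filter its changes were -0.37 and -0.18 (limma adjusted p = 0.459 and 0.785). The intervals of Krt18, which are not adjusted for the number of probe sets, left out 0, but none of these changes of either gene was called.

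Krt8 and Krt18 are neighbours on chromosome 7 of GRCr8, and Jup lies on chromosome 10 between Hap1 and P3h4, near keratin genes that include Krt15 and Krt17. The 10 protein-coding genes that flank Jup in chromosome order and passed the signal filter were taken, in equal number on each side. Of these, 3 fell and none rose in MUC1-CD culture, with a median change of -0.10. In tumors against MUC1-CD culture 1 rose and 2 fell, with a median of 0.33. Among the 10 such genes around Krt8, 4 fell and 1 rose in MUC1-CD culture, with a median of -0.46. Over all 10037 tested genes, 24.9% fell and 21.2% rose in MUC1-CD culture against Vector, with a median of -0.04. In tumors against MUC1-CD culture 8.97% fell and 9.82% rose, with a median of 0.03. The counts of neighbours were not tested against these shares.

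The gene whose profile over the 6 arrays was nearest to that of Jup, of 10036 compared, was Serpinf1, which encodes a secreted protein of the serpin family (Euclidean distance of centred log2 values 0.393). Its signals were 4644.2 and 3334.1 in Vector, 422.4 and 400.1 in MUC1-CD culture, and 3707.8 and 3796.3 in tumors. Nearest to Krt8 was Ecscr (distance 0.244), at 431.6 and 455.8, 37.3 and 41.2, and 51.2 and 54.2 in the same order. Nearest to Cdh1 was Spn (0.471), which encodes a sialoglycoprotein of leukocytes, at 64 and 67.4 in Vector, 38.6 and 43 in MUC1-CD culture, and 1311.6 and 1620.8 in tumors. For Ctnnb1, Ctnna1, Cdh2 and Cdh11 the nearest were Zfp609, Phtf2, Ldhd and Cspp1, at 0.0645 to 0.165. Among the members themselves the closest pair was Ctnnb1 and Ctnna1 (0.387) and the farthest Cdh1 and Krt8 (7). These distances describe likeness of profile and were not tested.

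Other cadherins did not share 1 direction. Of 5 tested, 2 rose and 1 fell in MUC1-CD culture (46.1% of all genes called), with a median of -0.14 against -0.04 for all genes. Cdh13, a cadherin held by a lipid anchor, went from 3 and 1.8 in Vector to 481.6 and 502.8 in MUC1-CD culture and 350.5 and 450.4 in tumors (change in culture 4.79, limma adjusted p = 2.99e-05). Cdh17, a cadherin of gut epithelium, rose in culture by 2.25 (limma adjusted p = 0.00115) and in tumors against MUC1-CD culture by 1.77 (limma adjusted p = 0.0095), the latter lost without any 1 of the 4 arrays compared. The Vector signals of Cdh13 and of Cdh17 (21.4 and 7.7) lay below the signal filter. Both genes passed it only through the MUC1-CD groups, where they are high, so their calls in culture were in part set by the filter. Cdh3, P-cadherin, fell by 1.07 in culture (limma adjusted p = 0.0247), a call lost without any 1 of the 4 MUC1-CD arrays.

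Among 15 tested partners of the cadherin complex, 6 rose and 2 fell in MUC1-CD culture (46.1% of all genes called). In tumors against it none rose and 5 fell (18.8% of all genes called). The median changes were 0.11 and -0.20. With each array divided by its median the first count became 4 rising and 4 falling. Nectin3, an adhesion molecule linked to the same junctions, rose in culture by 2.32 (limma adjusted p = 0.000135), and Lmo7, an actin-linked junction protein, by 1.74 (limma adjusted p = 0.000232). Ctnnal1, a relative of alpha-catenin, fell by 2.405 in culture (limma adjusted p = 0.000121) and again by 1.11 in tumors (limma adjusted p = 0.00686), the second call lost without any of 3 of the 4 arrays compared.

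Desmosome genes, the other setting in which plakoglobin works, were mostly dim. Of 12 on the array 8 were below the filter, among them desmoplakin (Dsp, 22.8 to 68.4) and the desmosomal cadherins Dsg1, Dsg2, Dsc1 and Dsc2 (0.7 to 38.7). Of the 4 tested, 2 rose and 2 fell in MUC1-CD culture (46.1% of all genes called). In tumors against it 2 fell (18.8% of all genes called). Ppl, which joins plaques to filaments, rose in culture by 3.07 (limma adjusted p = 3.04e-05). Pkp2, a plakophilin of the plaque, had signals of 205.2 and 368.8 in Vector, 141.2 and 129.8 in MUC1-CD culture, and 7.5 and 5 in tumors, a fall of 2.77 in tumors against MUC1-CD culture (limma adjusted p = 0.00245). Pkp4, an armadillo protein related to the plakophilins, fell by 0.69 in culture and by 1.01 in tumors (limma adjusted p = 0.0064 and 0.00456). Both Pkp4 calls were lost without either MUC1-CD culture array, and the tumor call also without either tumor array. Pkp2 therefore went the opposite way to Jup in tumors.

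Of 16 tested genes of beta-catenin turnover and its transcription partners, 5 rose and 2 fell in MUC1-CD culture (46.1% of all genes called). In tumors against it 2 rose (18.8% of all genes called). The medians were 0.09 and 0.20, and both became negative with each array divided by its median (-0.23 and -0.07). Axin2, a feedback target and inhibitor of beta-catenin, stood at 48.5 and 23.8 in Vector, 68.9 and 42.3 in MUC1-CD culture, and 693.3 and 705.2 in tumors, a rise of 3.35 in tumors against MUC1-CD culture (limma adjusted p = 0.00106). Like the Cdh1 probe set, Axin2 passed the signal filter only through the tumors. Tcf7, a DNA-binding partner, rose by 0.81 in culture and by 1.08 in tumors (limma adjusted p = 0.00389 and 0.00407), the second lost without any of 3 arrays. Lef1, another such partner, fell by 2.10 in culture (limma adjusted p = 0.000299) and differed by 0.01 in tumors from MUC1-CD culture (limma adjusted p = 0.988).

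Transcription factors of the epithelial-mesenchymal transition repress Cdh1 and junction genes in many systems. Of 5 tested, 2 rose in MUC1-CD culture (46.1% of all genes called) and 2 rose in tumors against it (18.8% called), and none fell. With each array divided by its median, 1 of the 5 fell in MUC1-CD culture against Vector, beside the 2 that rose. Snai1 stood at 138.7 and 88.3 in Vector, 273.5 and 252.2 in MUC1-CD culture, and 681.8 and 642.6 in tumors. It rose in culture by 1.13 and in tumors by 1.28 (limma adjusted p = 0.00658 and 0.0121). Zeb1 rose in culture by 0.89 (limma adjusted p = 0.00283), and Zeb2 in tumors by 1.20 (limma adjusted p = 0.0122). The tumor calls of Snai1 and Zeb2 were lost without any 1 of the 4 arrays compared, and the culture call of Snai1 without MUC1-CD culture replicate 1. Snai1 had its highest signals in tumors, and whether these factors bear on Jup or Cdh1 was not tested.

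Of 5 other keratins tested, 1 fell in MUC1-CD culture (46.1% of all genes called). In tumors against it 1 rose and 2 fell (18.8% of all genes called). Krt10, a keratin of differentiated epidermis, fell by 1.23 in culture (limma adjusted p = 0.00635), a call lost without MUC1-CD culture replicate 1. Krt7, a simple-epithelial keratin on the same chromosome as Krt8, was 1.23 higher in culture (limma adjusted p = 0.0668) and fell by 2.69 in tumors (limma adjusted p = 0.0117), a call lost without either MUC1-CD culture array. Krt15, an epidermal keratin, fell by 1.97 in tumors (limma adjusted p = 0.00269). Keratinocyte markers gave a summed signal of 599.4 and 656.5 in Vector, 351.3 and 391.3 in MUC1-CD culture and 375.7 and 452.5 in tumors. The Vector arrays were highest in this sum, and the others overlapped. Not every marker followed the sum. Krt10 read 248.8 and 350.8 in Vector and 100.7 and 135.3 in MUC1-CD culture. Krt15 overlapped between these groups (185 and 174.6 against 142.4 and 185.6). Krt15 and Sfn were not called between them, and Krt1, Krt5 and Krt14 were below the filter. Krt10 and Krt15 are in both lists.

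Of 7 other intermediate filament genes tested, 4 rose and 1 fell in MUC1-CD culture (46.1% of all genes called). In tumors against it 2 fell (18.8% of all genes called). Nes, nestin of progenitor cells, rose in culture by 2.26 (limma adjusted p = 0.000412). Its Vector signals (32.1 and 50.6) lay below the signal filter, which Nes passed only through the MUC1-CD groups, where it is high. Lmnb1, a lamin of the nuclear envelope, rose by 0.97 in culture (limma adjusted p = 0.00118) and fell by 0.66 in tumors (limma adjusted p = 0.0164), the latter lost without any 1 of the 4 arrays compared. Synm, synemin, rose by 0.77 in culture (limma adjusted p = 0.0156), which was lost with each array divided by its median or without either MUC1-CD culture array, and fell by 1.76 in tumors (limma adjusted p = 0.00194). Fibroblast markers stayed bright, with a summed signal of 119600 and 116000 in Vector, 82520 and 84050 in MUC1-CD culture, and 100200 and 104200 in tumors. Of 9 tested, 6 fell and 1 rose in MUC1-CD culture, where 24.9% of all genes fell and 21.2% rose. Vim, vimentin, fell by 0.37 in culture (limma adjusted p = 0.00412), a call lost without the trend and with quantile normalization, where the change was 0.024. Col3a1, a fibrillar collagen, stood at 14572.7 and 15624.4 in Vector, 5549.3 and 5286.6 in MUC1-CD culture, and 14933.0 and 16017.6 in tumors. It was low in MUC1-CD culture alone, as Jup was.

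**Figure D4:**
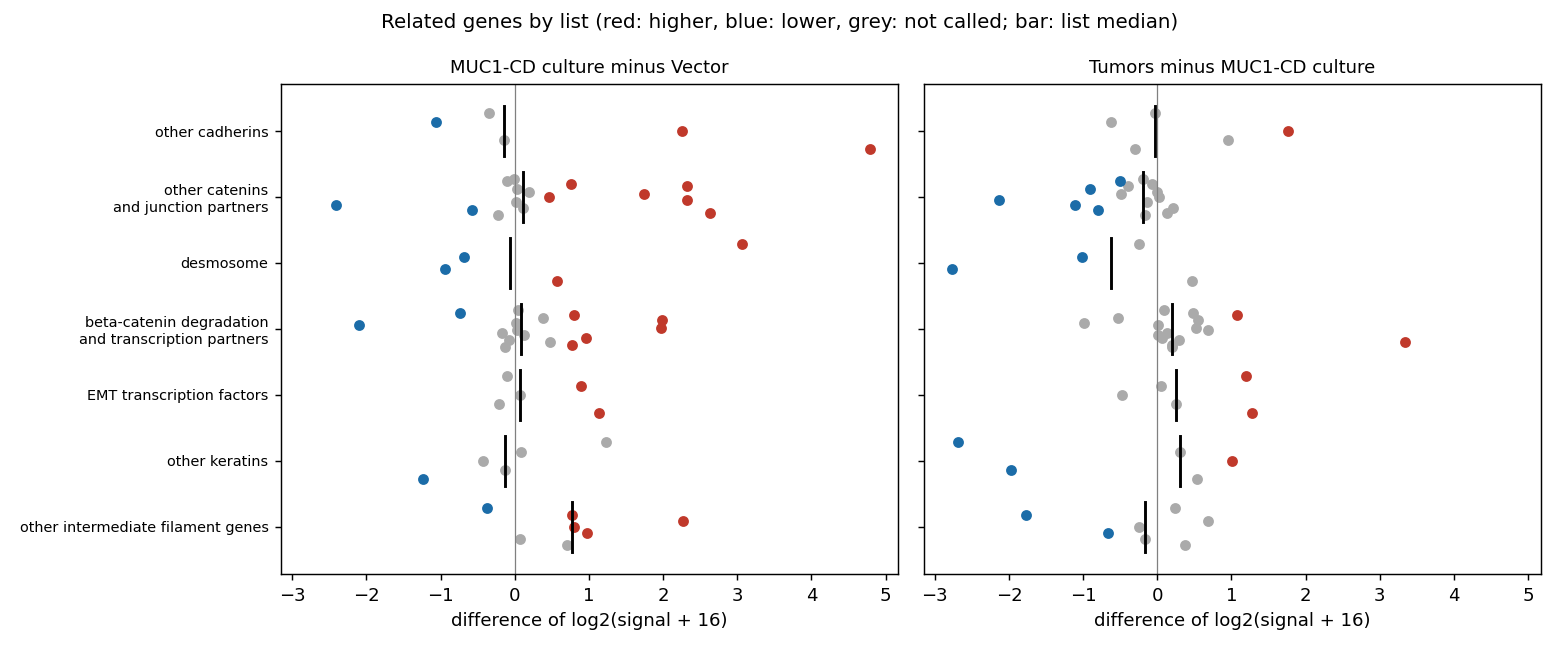
Difference of log2(signal + 16) for the tested genes of each related list (points) in MUC1-CD culture against Vector and in tumors against MUC1-CD culture, with the list's median as a black bar; red points rose, blue points fell and grey points were not called. In MUC1-CD culture against Vector, calls in both directions occur in most lists. In tumors against MUC1-CD culture, only the other keratins hold calls in both directions (1 rose and 2 fell). The medians run from -0.63 (desmosome genes in tumors) to 0.77 (other intermediate filament genes in culture).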

How the data were processed

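RNA was hybridised to Affymetrix rat genome arrays. Per the submitters' processing notes, the deposited table holds MAS5 signals, a linear intensity for each probe set, and each array had the same trimmed mean. For the MAS5 version and detection calls: not given in the sources used here. Of 31099 probe sets, 57 controls were left out. Genes were named from the platform annotation, with 20826 probe sets naming 1 gene, 436 naming several and 9780 unlisted.

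Signals were transformed as log2(signal + 16), and the filter left 18625 probe sets, those whose mean signal reached the 40th percentile (61.6). The 6 arrays were fitted in 1 model with group as its only term in limma 3.58.1 (R 4.3.3; lmFit, eBayes with a mean-variance trend; 3 residual and 3.7 prior degrees of freedom). Tests were 2-sided, with Benjamini-Hochberg adjustment over all kept probe sets and a threshold of 0.05. The code was tested on simulated data. A gene was represented by its brightest probe set. Named were all members, genes from the up to 3 per list with the smallest p over the 3 comparisons, and the nearest profile to each member called; other list genes given were chosen after their values were seen. The members and lists were chosen with earlier results of these data known. Alternatives were pseudocounts of 1 and 64, no filter or a 60th percentile filter, median scaling, quantile normalization, no trend, array weights, a replicate block, the 2 compared groups alone, and leaving out each array. No protein or genome sequence was used here.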

Additional observations from a re-analysis of the deposited data

How the results depend on the processing

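Of 188 alternative values for members in MUC1-CD culture against Vector, 157 kept their direction and side of the threshold; 159 of 187 did in tumors against MUC1-CD culture and 148 of 189 in tumors against Vector. Member probe sets called in MUC1-CD culture against Vector (5) became 3 with only the 2 groups compared and 2 to 7 leaving out single arrays. In tumors against MUC1-CD culture (5) they were 3 to 7 leaving out single arrays. In tumors against Vector (6) they were 3 with a 60th percentile filter, 3 without the trend, and 3 to 9 leaving out single arrays. With the replicate block the counts were 5, 5 and 7. Same-numbered arrays did not deviate together (correlations -0.0184, -0.027 and -0.0445). Whether they shared a culture or batch cannot be told from this, with 2 arrays a group. Median scaling moved the median of all probe sets from 0.07 to -0.24, from 0.05 to -0.21 and from 0.12 to -0.45 in the 3 comparisons. Over all probe sets, calls in MUC1-CD culture against Vector (8522) were 4391 to 11503 leaving out single arrays. In tumors against MUC1-CD culture (2952) they were 572 to 8097 leaving out single arrays, 7798 with array weights and 8144 with the 2 groups alone. In tumors against Vector (9589) they were 5884 to 12434 leaving out single arrays.

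Among the member probe sets, signs turned only for values not called in the fit reported, and the cause was not tested. In MUC1-CD culture against Vector, median scaling gave -0.27 for Ctnnb1 1373470_at, -0.24 for Ctnnd1, -0.14 for Cdh2 1368642_at and -0.024 for Cdh11 1388936_at. Quantile normalization gave -0.054 for Ctnnd1. In tumors against MUC1-CD culture, median scaling gave -0.11 for Ctnnb1 1373067_at and -0.22 for Ctnnd1. Quantile normalization gave -0.014, -0.055 and, for Krt8, -0.14. In tumors against Vector, median scaling gave -0.45 for Jup and -0.47 for Ctnnd1, and quantile normalization 0.070 for Ctnnb1 1373470_at and -0.11 for Ctnnd1. Leaving out single arrays gave -0.025 to 0.14 for Ctnnb1 1373470_at and -0.18 to 0.31 for Ctnnd1 in the first comparison. The ranges were -0.077 to 0.15 for Ctnnd1 and -0.93 to 0.069 for Cdh11 1391146_at in the second, and -0.21 to 0.49 for Jup and -0.14 to 0.35 for Ctnnd1 in the third. With 2 arrays a group, small changes of dim probe sets were not detectable here.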
